A study of Mus musculus with 8 samples.

Results

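The transcription factors that divide the ventral neural tube into progenitor domains were followed in whole mouse embryos that carried a changed Smoothened receptor. Choosing by gene symbol gave 10 genes, Nkx2-2, Nkx2-9, Olig2, Olig1, Nkx6-1, Nkx6-2, Mnx1, Dbx1, Dbx2 and Irx3, all of which were found among the 41709 symbols of the deposited table. The mutants were 4 embryos homozygous for the K399A substitution in Smo (Smo K399A/K399A), and the wild type (WT) were 4 Smo +/+ embryos, all at embryonic day 9.5 and all from crosses of Smo K399A/+ parents. The substitution is carried in every cell of the mutant embryo, and neither group carried another named allele or agent. Each embryo was a separate sample, and the embryos came from several litters that are not named for single embryos. Strain, sex and somite number were not given in the sources used here. RNA was measured as TPM, a unit in which reads are divided by gene length and each library is scaled to the same total.

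In the neural tube, Sonic hedgehog spreads from the notochord and floor plate and sets up stripes of progenitors. Hedgehog signalling turns on the genes Nkx2-2, Nkx2-9, Olig2 and Nkx6-1 in ventral progenitors, while Irx3, Dbx1 and Dbx2 are held to more dorsal progenitors. Neighbouring factors of this network repress each other, as Olig2 and Irx3 do, which sharpens the border between their stripes. Smoothened carries the signal into the cell, so these genes are a classical readout of how far a Hedgehog signal reaches.

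No member differed between genotypes past the threshold, a Benjamini-Hochberg adjusted p under 0.05 over all 13596 genes with at least 1 TPM in at least 4 embryos (limma on log2(TPM + 1)). The threshold was passed by 0 of these 13596 genes (0%), and 1842 of them (13.5%) had an unadjusted p under 0.05. Limma voom on recovered reads also called 0 genes. Olig2, Nkx2-2, Dbx1 and Olig1 had the lowest mutant means relative to WT, at 50.8%, 55.7%, 59.6% and 40.8% of the WT mean. Irx3 lay at 98.5% of the WT mean, and Nkx2-9, Nkx6-1 and Nkx6-2 lay between 80.0% and 84.8%. Whole embryos hold many tissues, so fewer cells of a type and less RNA per cell cannot be told apart.

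**Figure D1:**
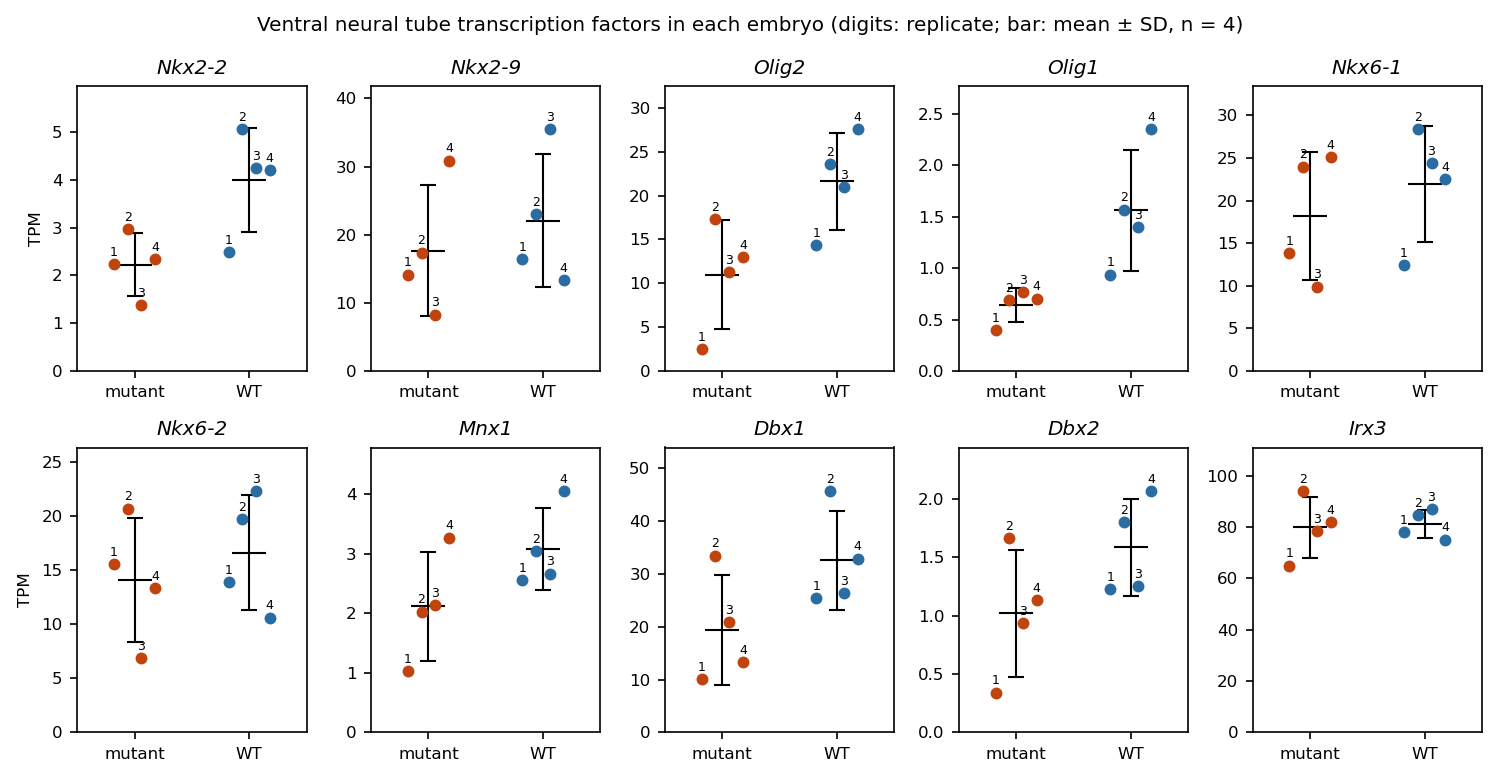
TPM of each of the 10 genes (vertical axes, linear and starting at 0) in 4 mutant embryos (left, red) and 4 WT embryos (right, blue); digits give the replicate, and bars the mean ± SD. The groups are apart for Olig1, with mutants up to 0.765 TPM and WT from 0.936 TPM, and overlap for the other 9 genes.

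The 300 bases around the start of 3 genes are shown. Nkx2-2 and Nkx2-9 were chosen because they mark the same progenitors with unlike values here, though no difference between them was tested. Olig2 was chosen for the largest log2 difference among the members tested, in the fit of all 8 embryos without a covariate. The sequences are RefSeq's on build GRCm38.p6, 250 bases before to 50 after the gene start, at chr2:147186353-147186652 on the minus strand for Nkx2-2, chr12:56613235-56613534 on the minus strand for Nkx2-9 and chr16:91225300-91225599 on the plus strand for Olig2. Capitals mark the first 7 letters of the GLI consensus, read here on the opposite strand.
Nkx2-2: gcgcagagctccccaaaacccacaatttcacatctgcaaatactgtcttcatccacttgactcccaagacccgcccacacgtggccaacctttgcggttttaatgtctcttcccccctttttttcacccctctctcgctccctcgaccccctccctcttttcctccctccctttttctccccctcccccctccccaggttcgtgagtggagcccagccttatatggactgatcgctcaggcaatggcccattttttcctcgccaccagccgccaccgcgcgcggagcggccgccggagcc
Nkx2-9: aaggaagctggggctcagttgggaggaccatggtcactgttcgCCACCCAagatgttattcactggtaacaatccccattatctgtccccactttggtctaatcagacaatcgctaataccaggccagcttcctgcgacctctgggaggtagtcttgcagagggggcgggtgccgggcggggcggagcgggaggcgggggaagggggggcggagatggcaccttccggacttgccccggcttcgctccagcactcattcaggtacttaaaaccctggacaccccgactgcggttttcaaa
Olig2: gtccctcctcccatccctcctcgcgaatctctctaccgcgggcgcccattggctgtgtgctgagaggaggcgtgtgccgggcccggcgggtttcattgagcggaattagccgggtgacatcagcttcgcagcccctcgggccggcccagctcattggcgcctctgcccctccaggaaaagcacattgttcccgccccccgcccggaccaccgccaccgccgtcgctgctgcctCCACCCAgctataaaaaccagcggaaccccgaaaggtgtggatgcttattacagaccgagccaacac
The 9 letters of the consensus, TGGGTGGTC, were searched on both strands and were in 0 of the 9 member windows that RefSeq's table held, and in 0.253% of all 32851 windows. Its first 7 letters, TGGGTGG, which lie within the 9, were in the windows of Nkx2-9 and Olig2, and in 9.3% of all windows. The match began 207 bases before the RefSeq start of Nkx2-9 and 17 bases before that of Olig2. GENCODE M21 places the start of Olig2 at 91225457, so that the match lies inside the gene there. It places the start of Nkx2-2 at 147194243, outside the window shown. Such a match is a run of letters, and binding there was not measured.

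The libraries were close in depth, with 60.00 to 61.47 M recovered reads (M, mega) each. They were not close in the levels of yolk sac endoderm genes, mt-Nd6 and neural progenitor genes. The mean log2(TPM + 1) of 10 yolk sac endoderm genes was 6.21, 5.63, 4.07 and 3.44 in mutants 1 to 4, against 1.28, 1.80, 4.22 and 1.34 in WT embryos 1 to 4. Mutants 3 and 4 stood apart by mt-Nd6, at 4.06 and 10.8 TPM, against 27.9 and 32.7 TPM in mutants 1 and 2 and 32.4 to 36.2 TPM in WT. Mutant 1 stood apart by neural progenitor genes: Sox1, Sox2 and Sox3 together came to 146.2 TPM there, with 237.2 to 316.4 TPM in mutants 2, 3 and 4 and 259.8 to 339.0 TPM in WT. Smo itself was at 125.7 to 156.2 TPM in mutants and 132.4 to 146.7 TPM in WT. A substitution need not alter a transcript's level, so this does not check the genotype labels. What lies behind these differences between libraries, and the part they play in the results below, was not tested.

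Nkx2-2 and Nkx2-9 are homeodomain factors of the progenitors next to the floor plate. Their log2 fold changes were not tested against each other. Nkx2-2, which these progenitors need to make V3 interneurons, was at 2.23, 2.96, 1.38 and 2.34 TPM in mutants 1 to 4, against 2.48, 5.06, 4.25 and 4.21 TPM in WT 1 to 4. Of the WT embryos, 3 lay above every mutant, while WT 1 lay within the mutant range. The means were 2.23 ± 0.653 TPM in mutants and 4.00 ± 1.08 TPM in WT (SD, n = 4 each). Its log2 fold change, mutant minus WT on the TPM + 1 scale, was -0.63 ± 0.20 (SE; 95% interval -1.08 to -0.17; limma adjusted p = 0.300). The two-sided exact permutation p was 0.0571, where 0.0286 is the smallest that 4 embryos against 4 allow. No single embryo carried the Nkx2-2 difference, which on the log2 scale ran from -0.79 to -0.49 as each was left out. It was -0.45 without mutants 3 and 4, and -0.86 ± 0.30 (SE) with the mean of the yolk sac genes as a covariate. That covariate itself averaged 4.84 in mutants and 2.16 in WT. Fits with it, here and below, therefore cannot fully separate it from genotype, and their estimates are less precise.

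Nkx2-9, a close relative expressed early in the same stripe, was at 14.1, 17.4, 8.25 and 30.9 TPM in mutants, against 16.4, 23.1, 35.4 and 13.3 TPM in WT. The highest mutant exceeded 3 of the WT embryos and the lowest WT embryo lay below 3 of the mutants. The log2 fold change was -0.35 ± 0.38 (95% interval -1.21 to 0.50; limma adjusted p = 0.666; exact permutation p = 0.486). It became -0.06 without mutant 3, -0.66 without mutant 4 and -0.73 with the yolk sac covariate. Nkx2-2 was at -0.65 without mutant 4 and at -0.86 with that covariate, so the genes lay close without mutant 4. The TPM ratio of Nkx2-9 to Nkx2-2 was 6.33, 5.86, 5.99 and 13.2 in mutants, against 6.60, 4.56, 8.35 and 3.17 in WT. Mutant 4 had the largest ratio, so that the 2 factors did not keep a fixed proportion from embryo to embryo.

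Olig2, the basic helix-loop-helix factor that defines motor neuron progenitors, was at 2.45, 17.3, 11.2 and 13.0 TPM in mutants 1 to 4, against 14.4, 23.6, 20.96 and 27.5 TPM in WT 1 to 4. Mutants 1, 3 and 4 were below every WT embryo, and mutant 2 lay between WT 1 and WT 3. Mutant 1 was far below the rest, on 116 reads where the other libraries had up to 1330. Olig2 averaged 11.0 ± 6.23 TPM in mutants and 21.6 ± 5.54 TPM in WT (SD, n = 4 each). The log2 fold change was -1.11 ± 0.46 (SE; 95% interval -2.14 to -0.09; limma adjusted p = 0.344; exact permutation p = 0.0571). Without mutant 1 it was -0.59, which is closer to 0 than the -0.63 of Nkx2-2 in that setting. It was -1.39 without mutant 2 and -1.47 without mutants 3 and 4. With the mean of Sox1, Sox2 and Sox3 as a covariate it was -0.52, and with the yolk sac genes as a covariate -0.56.

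Olig1, a relative that lies 41.1 kb from Olig2 on chromosome 16 and is later a factor of oligodendrocytes, was the member with the lowest mean levels. It was at 0.396, 0.687, 0.765 and 0.704 TPM in mutants, against 0.936, 1.57, 1.40 and 2.35 TPM in WT. Every mutant was below every WT embryo (exact permutation p = 0.0286, the smallest possible), on 16 to 97 reads per library. Olig1 reached 1 TPM in only 3 embryos, all WT, and so was not among the 13596 genes. With the filter at 0.5 TPM, which let it in, its log2 fold change was -0.62 ± 0.16 and its limma adjusted p over 14816 genes was 0.280, while an unadjusted p under 0.05 with mutants lower was reached by 7.91% of those genes. Groups that did not overlap, with mutants lower, were found for 3.83% of those 14816 genes and for 3.82% of the 13596. The TPM ratio of Olig2 to Olig1 was 6.20 in mutant 1 and 14.7 to 25.2 in the other mutants, against 11.7 to 15.3 in WT.

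Nkx6-1 and Nkx6-2 overlapped widely between genotypes. Nkx6-1, a homeodomain factor shared by the progenitors of V3 interneurons, motor neurons and V2 interneurons, was at 13.8, 24.0, 9.90 and 25.1 TPM in mutants, against 12.4, 28.4, 24.4 and 22.5 TPM in WT. Mutants 2 and 4 and all WT embryos but WT 1 formed the upper range. Limma gave a log2 fold change of -0.29 ± 0.32 (95% interval -1.0 to 0.42; limma adjusted p = 0.671), with -0.05 without mutant 3, -0.47 without mutant 4 and -0.53 without WT 1. Nkx6-2, whose stripe in the mouse lies chiefly at the dorsal edge of that of Nkx6-1, was at 15.5, 20.7, 6.89 and 13.3 TPM in mutants, against 13.9, 19.7, 22.3 and 10.6 TPM in WT. Its lowest value was in mutant 3, and WT 4 came next. Its fitted log2 fold change was -0.26 ± 0.31 (95% interval -0.96 to 0.44; limma adjusted p = 0.700) and turned to 0.02 without mutant 3 and 0.16 without mutants 3 and 4, but was -0.97 with the yolk sac covariate. The 3' end of Nkx6-2 overlaps Inpp5a on the opposite strand, at 16.2 to 22.5 TPM. Since the strandedness of counting is not given, reads of the shared stretch cannot be assigned.

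Mnx1, which marks motor neurons and at this age also notochord and gut endoderm, was at 1.02, 2.03, 2.14 and 3.27 TPM in mutants, against 2.56, 3.04, 2.67 and 4.05 TPM in WT. Mutants 1, 2 and 3 were below every WT embryo, and mutant 4 was exceeded only by WT 4. On the log2 scale the difference was -0.42 ± 0.22 (95% interval -0.91 to 0.06; limma adjusted p = 0.405; exact permutation p = 0.143). It was -0.23 without mutant 1, -0.71 without mutants 3 and 4, and 0.05 with the yolk sac genes as a covariate. Noto, a notochord gene, was at 0.0334, 0.995, 2.50 and 2.33 TPM in mutants and at 4.99, 2.92, 4.71 and 1.93 TPM in WT. Pdx1, of the pancreas bud, stayed at or below 0.292 TPM in mutants and at or below 0.649 TPM in WT. What these tissues add to the Mnx1 values was not tested.

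Dbx1 and Dbx2, the homeodomain factors of intermediate progenitors, were lower on average in mutants as well. Dbx1, of the progenitors of V0 interneurons, was at 10.1, 33.4, 20.8 and 13.2 TPM in mutants, against 25.3, 45.6, 26.4 and 32.8 TPM in WT. Mutants 1, 3 and 4 lay below every WT embryo, whereas mutant 2 lay above 3 of them. Dbx1 averaged 19.4 ± 10.4 TPM in mutants and 32.5 ± 9.34 TPM in WT (SD, n = 4 each), with a log2 fold change of -0.82 ± 0.33 (95% interval -1.55 to -0.08; limma adjusted p = 0.341; exact permutation p = 0.143). The difference was -1.11 without mutant 2, -0.57 without mutant 1, -0.74 without mutants 3 and 4 and -0.46 with the Sox genes as a covariate. Dbx2, whose stripe is wider than that of Dbx1, was at 0.339, 1.66, 0.939 and 1.14 TPM in mutants, against 1.23, 1.80, 1.25 and 2.07 TPM in WT. The embryos ranked much as for Dbx1, with mutant 1 lowest and mutant 2 within the WT range. The log2 fold change of Dbx2 was -0.39 ± 0.21 (95% interval -0.86 to 0.08; limma adjusted p = 0.418), on 22 to 137 reads per library, and was -0.20 without mutant 1.

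Irx3, of the progenitors dorsal to those of motor neurons and also of heart and other mesoderm, was the steadiest member. It was at 65.0, 94.1, 78.4 and 82.0 TPM in mutants, against 77.9, 84.6, 86.9 and 75.0 TPM in WT. The mutants held both the lowest and the highest value. The log2 fold change was -0.03 ± 0.10, and its 95% interval, from -0.26 to 0.20, bounds a difference in either direction (limma adjusted p = 0.900). Its sign turned positive without mutant 1 (0.06) or with the Sox genes as a covariate (0.10). Irx5, which lies 555.6 kb away, was at 18.6 to 28.3 TPM in mutants and 20.4 to 25.4 TPM in WT. The antisense Irx3os was at 1.04 to 1.62 TPM in the 8 embryos.

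**Figure D2:**
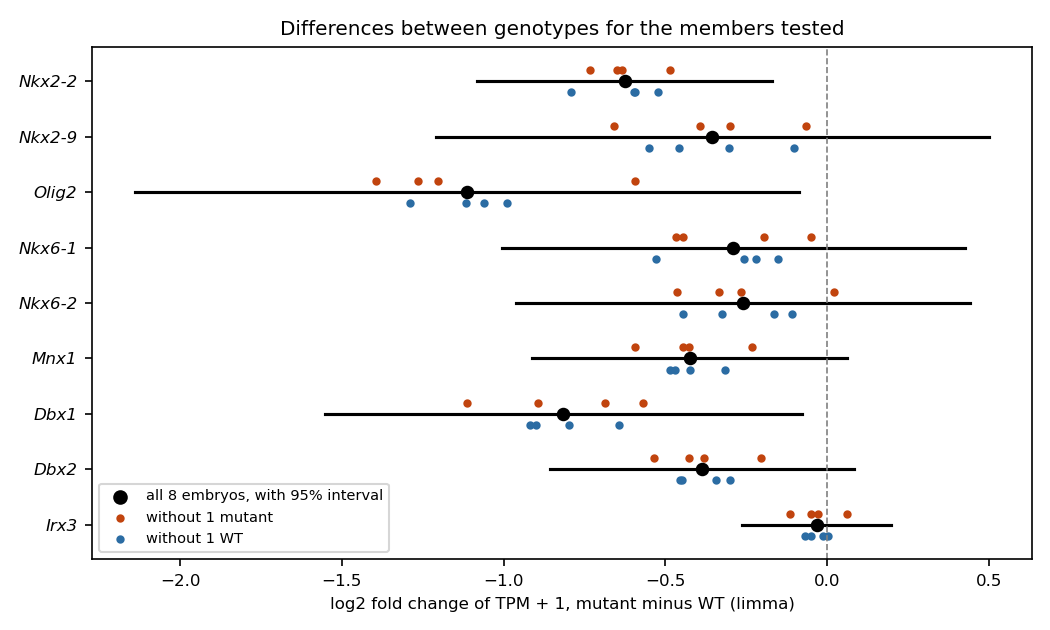
Log2 fold change of TPM + 1, mutant minus WT (horizontal axis), for the 9 members tested, with the 95% interval from limma (black line) and the value as each mutant (red) or WT embryo (blue) is left out. The intervals of Nkx2-2, Olig2 and Dbx1 end below 0, at -0.17, -0.09 and -0.08, and Olig2 moves to -0.59 without mutant 1.

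Across the 9 members tested, the log2 fold change was below 0 in all 9, against 62.3% of the 13596 genes, with a median of -0.39 against -0.04. An unadjusted limma p under 0.05 with lower values in mutants was reached by 3 members, Nkx2-2, Olig2 and Dbx1, and by 8% of all genes. With the filter at 0.5 TPM, 10 of 10 were below 0 and the median was -0.41. Without mutant 1, 8 of 9 were below 0 with a median of -0.30, and without mutants 3 and 4, 8 of 9 with a median of -0.44. Over all the settings tried, the median ran from -0.62 with voom on recovered reads to -0.19 with the Sox genes as a covariate, and was -0.56 with the yolk sac genes as a covariate. The count of 3 members with an unadjusted p under 0.05 was 1 without WT 2 and 1 without WT 4. These members were not tested as a set, and they share the same 8 libraries. Mutant 1 was the lowest of the 8 embryos for 6 of the 10 members and mutant 3 for the other 4. Mutant 3 was below the WT minimum for 9 of 10 members, mutant 1 for 7, mutant 4 for 5 and mutant 2 for 2. Over all 13596 genes, the mean log2(TPM + 1) was 4.181 and 4.198 in mutants 3 and 4, below every WT embryo. It was 4.385 and 4.381 in mutants 1 and 2, and 4.305 to 4.365 in WT. For no embryo was the share of all genes below the WT minimum counted. The counts of members below it are therefore not known to be particular to the members.

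Mutants 1 and 3 were both below every WT embryo for 6 members, Nkx2-2, Olig2, Olig1, Mnx1, Dbx1 and Dbx2. The share of all genes with this pattern was not counted, so it is not known to be particular to the members. The lowest value of all 8 embryos was that of mutant 1 for Olig2, Olig1, Mnx1, Dbx1, Dbx2 and Irx3, and that of mutant 3 for Nkx2-2, Nkx2-9, Nkx6-1 and Nkx6-2. Gli1, a direct target that reads out the pathway, was also lowest in mutant 3, at 10.7 TPM, against 23.2, 28.9 and 19.5 TPM in mutants 1, 2 and 4 and 25.8 to 30.1 TPM in WT. Among WT embryos, WT 4 was highest of all 8 for Olig2, Olig1, Mnx1 and Dbx2, and WT 2 for Nkx2-2, Nkx6-1 and Dbx1.

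**Figure D3:**
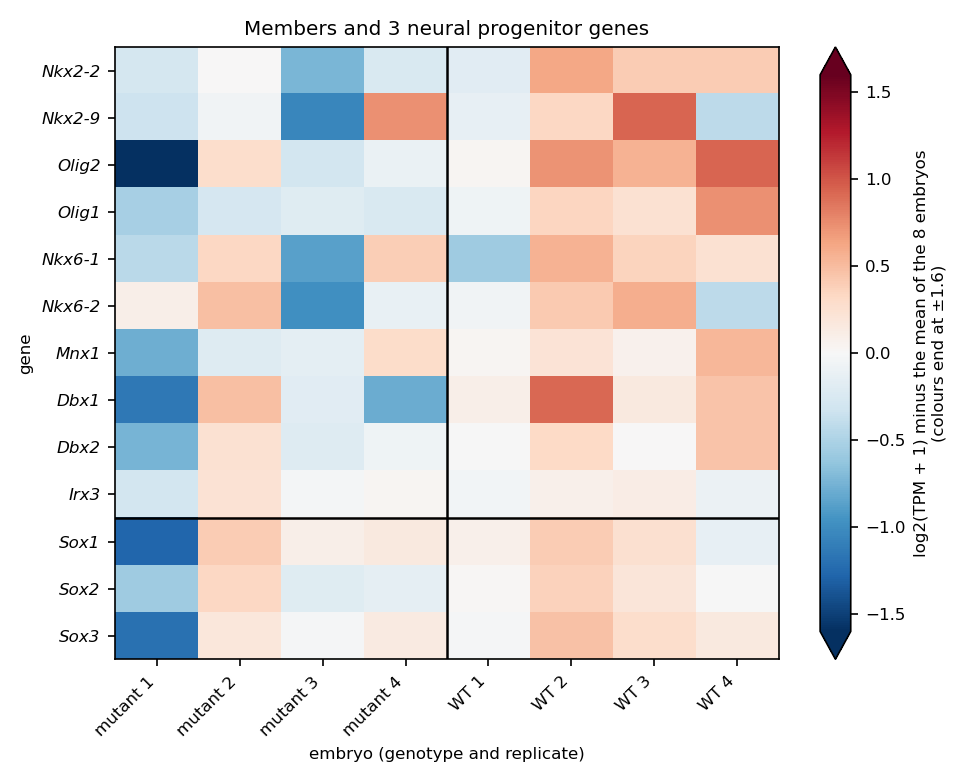
Log2(TPM + 1) of each member and of Sox1, Sox2 and Sox3 (rows) in each embryo (columns, mutants left of the black line), minus the gene's mean over the 8 embryos; red is above and blue below that mean. Mutants 1 and 3 hold the lowest value of every member between them, and both lie below all WT embryos for 6 of the 10. The share of all genes with this pattern was not counted.

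Ratios within an embryo were used to set members against neural tissue and against each other. Per 100 TPM of Sox1, Sox2 and Sox3 together, Olig2 was at 1.68, 5.46, 4.73 and 5.15 TPM in mutants, against 5.53, 6.96, 6.98 and 10.6 TPM in WT. The groups did not overlap in this ratio, but mutant 2 and WT 1 were nearly level. Olig1, whose groups did not overlap either, was at 0.217 to 0.322 TPM on the same scale in mutants and at 0.360 to 0.902 TPM in WT. Nkx6-1 averaged 7.79 ± 2.62 on this scale in mutants and 7.48 ± 1.81 in WT (SD, n = 4 each), and Nkx2-9 7.72 ± 3.97 in mutants and 7.51 ± 2.95 in WT. Nkx6-2 averaged 6.34 ± 3.23 in mutants and 5.66 ± 1.39 in WT, and Irx3 was at 29.7 to 44.4 in mutants and 24.9 to 30.01 in WT, with means of 34.9 in mutants and 28.2 in WT. Dbx1 overlapped, at 5.25 to 10.6 in mutants and 8.77 to 13.5 in WT, as did Nkx2-2, at 0.580 to 1.53 in mutants and 0.956 to 1.61 in WT. Of the 14816 genes with at least 0.5 TPM in at least 4 embryos, 0.155% did not overlap on this scale with mutants lower, and 2.77% with mutants higher. The low Sox total of mutant 1 enters every one of its ratios, and without that embryo 2.61% of those genes did not overlap with mutants lower, Olig2, Olig1 and Nkx2-2 among them.

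The TPM ratio of Olig2 to Irx3, factors on the 2 sides of a border, was 0.0378, 0.184, 0.143 and 0.158 in mutants, against 0.184, 0.279, 0.241 and 0.367 in WT. Mutant 2 and WT 1 were level to 3 digits, and the other mutants lay below all WT embryos. Irx3 is also made outside the neural tube, so this ratio is not one of neural cells alone. These ratios were formed after the values were seen and were not tested.

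**Figure D4:**
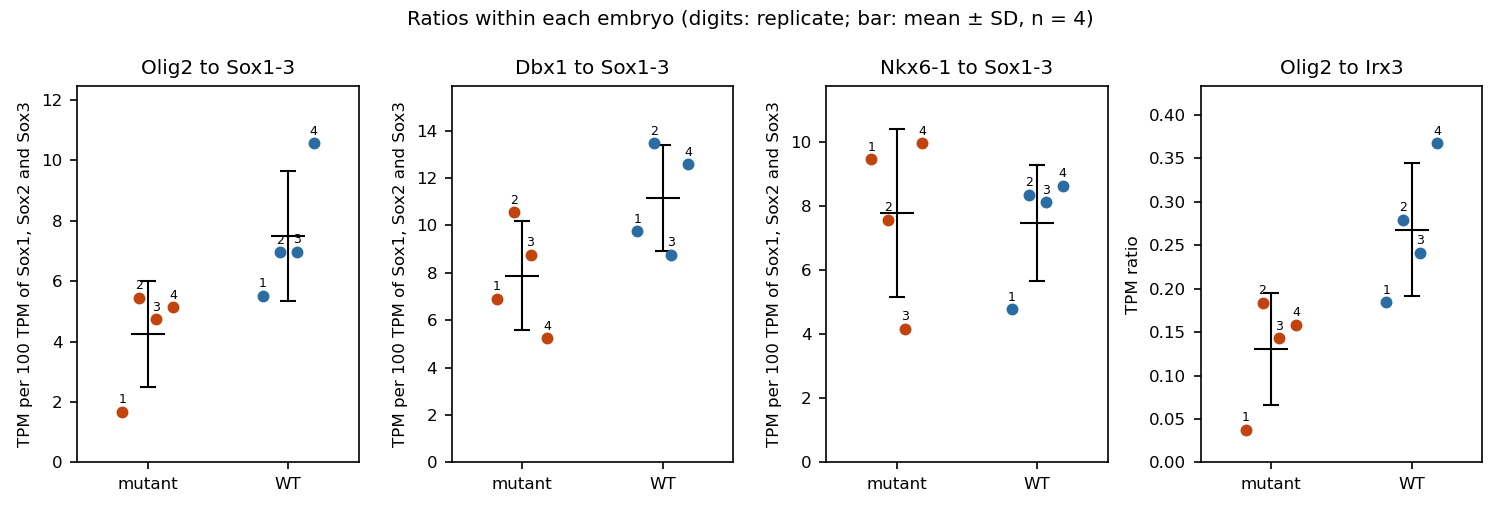
Olig2, Dbx1 and Nkx6-1 in TPM per 100 TPM of Sox1, Sox2 and Sox3 together, and the TPM ratio of Olig2 to Irx3 (vertical axes, linear and starting at 0), in 4 mutants (left, red) and 4 WT embryos (right, blue), with mean ± SD. Olig2 lies between 1.68 and 5.46 in mutants and between 5.53 and 10.6 in WT, whereas Nkx6-1 overlaps throughout.

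In level per gene length, the members spanned a wide range with a similar order in both genotypes. Irx3 was highest in all 8 embryos, at 79.9 ± 12.0 TPM in mutants and 81.1 ± 5.55 TPM in WT (SD, n = 4 each). Dbx1 followed in both groups. Nkx6-1, Nkx2-9, Nkx6-2 and Olig2 came next in mutants, with means of 18.2 to 11.0 TPM, and Nkx2-9, Nkx6-1, Olig2 and Nkx6-2 in WT, with means of 22.1 to 16.6 TPM. Neighbours among these 4 lay within each other's SD in both groups. Nkx2-2 and Mnx1 were lower, at 2.23 and 2.11 TPM in mutants and 4.00 and 3.08 TPM in WT. Dbx2 and Olig1 were lowest, at 1.02 and 0.638 TPM in mutants and 1.59 and 1.56 TPM in WT. The coefficient of variation was larger in mutants for 9 of the 10 members, Olig1 being the exception, as it was for 81.6% of the 13596 genes. The SD itself was smaller in mutants for Nkx2-2, Nkx2-9 and Olig1. For Olig2 the coefficient of variation was 56.7% in mutants and 25.6% in WT, and for Irx3 15.0% in mutants and 6.84% in WT.

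Of 30 other genes of ventral progenitors and their neurons, 20 passed the filter and 0 passed the threshold. An unadjusted limma p under 0.05 was reached by 3 lower in mutants and 1 higher, against 8% and 5.55% of all genes. The median log2 fold change of the 20 was -0.12. Isl2, of young motor neurons, was at 3.88, 1.73, 2.10 and 1.63 TPM in mutants, against 3.11, 4.37, 3.05 and 5.59 TPM in WT (log2 fold change -0.61, limma adjusted p = 0.324). Mutants 2, 3 and 4 lay below every WT embryo, and mutant 1 above WT 1 and WT 3. Lhx5, of interneurons and also of the forebrain, was at 3.32, 9.37, 6.93 and 7.36 TPM in mutants, against 14.7, 12.2, 13.4 and 8.63 TPM in WT (-0.82, limma adjusted p = 0.299). Neurog2, which drives progenitors to become neurons, was at 7.42 to 20.3 TPM in mutants and 16.6 to 30.8 TPM in WT (-0.75, limma adjusted p = 0.329). Tbx20, of hindbrain motor neurons and of heart, was the gene higher in mutants, at 9.46 to 19.7 TPM, against 5.77 to 7.92 TPM in WT (0.76, limma adjusted p = 0.281). Its groups did not overlap, as was so with mutants higher for 3.63% of all genes.

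Neighbouring regions of the neural tube were set beside the members as a description. Of 11 floor plate and notochord genes tested, 8 were below 0, with a median log2 fold change of -0.20. Of 16 dorsal neural tube genes tested, 11 were below 0, with a median of -0.16, and Gsx2, of dorsal interneuron progenitors, was at 0.0631 to 1.23 TPM in mutants and 0.733 to 2.26 TPM in WT (limma adjusted p = 0.317). Sox1, Sox2 and Sox3 were all below 0, with a median of -0.30. All 10 neuronal genes tested were below 0, with a median of -0.76, and 6 of them had an unadjusted p under 0.05, against 62.3% and 8% of all genes. Their mean log2(TPM + 1) was 2.68 to 3.63 in mutants, against 4.49 and 4.39 in WT 2 and WT 4 and 3.55 and 3.30 in WT 1 and WT 3. Mutant 2 lay above WT 1 and WT 3, and the other mutants lay below all WT embryos. No difference between these lists was tested.

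Relatives of the Nkx2 members were set beside them as a description. Nkx2-1, of ventral forebrain, thyroid and lung, lies 74.5 kb from Nkx2-9 and was at 4.09, 4.37, 1.59 and 1.88 TPM in mutants, against 5.81, 9.89, 5.62 and 6.07 TPM in WT (log2 fold change -1.02, limma adjusted p = 0.281). Its groups did not overlap, as was so with mutants lower for 3.82% of all 13596 genes, while those of Nkx2-9 did. Nkx2-4 lies 92.1 kb from Nkx2-2 and was at 0.523 to 1.92 TPM in mutants and 0.677 to 2.25 TPM in WT, so that its groups overlapped too (-0.25, limma adjusted p = 0.663). Nkx2-5, a heart relative on another chromosome, lay the other way, at 17.2 to 34.7 TPM in mutants and 9.48 to 15.8 TPM in WT (0.84, limma adjusted p = 0.281). The groups of Nkx2-5 did not overlap either, as was so with mutants higher for 3.63% of all genes.

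Tested genes most like the mean of the 9 members were sought, with unnamed loci, such as Gm numbers and Rik clones, left out. The closest over the 8 embryos were Aim2, Rax, Mpped1, Nrcam and Cdh20. Likeness was the mean absolute difference between log2(TPM + 1) profiles, each centred on its own mean. That difference was 0.08 for Aim2, 0.09 for Rax, 0.12 for Mpped1, and 0.13 for Nrcam and for Cdh20. The members themselves differed by 0.18 (Dbx2) to 0.46 (Nkx2-9) from the mean of the other 8. Members were not picked for closeness, as the genes above were, so these ranges are not a like comparison. Rax, a factor of eye field and hypothalamus, was at 1.12, 2.44, 1.32 and 2.66 TPM in mutants, against 2.50, 3.41, 2.82 and 3.05 TPM in WT (limma adjusted p = 0.330).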

How the data were processed

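Each of the 8 libraries came from 1 embryo, made with a TruSeq RNA kit and read on a NovaSeq, per the labels. The authors deposited TPM per gene symbol, with build GRCm38 (mm10) named in the submitters' processing notes. Aligner, counter, annotation and strandedness were not given in the sources used here. Whole reads behind the TPM values were recovered with merged exon lengths of GENCODE M21 (93.7% of genes with a value whole within 0.02 reads in every library, all 10 members among them). The filter asked for 1 TPM or more in 4 or more embryos. Genotypes were fitted on log2(TPM + 1) with limma 3.58.1 (R 4.3.3), with a trend, two-sided, with Benjamini-Hochberg adjustment over all genes. This scale understates differences of low genes. Single values were compared by exact permutation over all 70 assignments. P-values measure the spread between these embryos. The fit was run on simulated data in which each gene varied independently. Differences that many genes share within an embryo were not simulated, so its power here is not known. Named were all members, up to 4 genes of smallest p per list, of which some are shown, and the 5 genes most like the members, unnamed loci left out. Some genes named by this rule are not reported here. Members and lists were chosen with earlier results of these data known. Chromosomal neighbours, overlapping genes and mt-Nd6 were chosen after their values were seen.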

Additional observations from a re-analysis of the deposited data

How the results depend on the processing

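In 22 alternative settings, 0 of the members tested passed the threshold. The number of genes called was 3 without mutants 3 and 4, and from 0 to 1 as each embryo was left out. The median log2 fold change of the members ran from -0.59 to -0.30 as each embryo was left out, and was -0.51 and -0.60 at pseudocounts of 0.5 and 0.1, -0.62 with voom, -0.56 with the yolk sac covariate and -0.19 with the Sox covariate. As each embryo was left out, Nkx6-2 ran from -0.464 to 0.0218 (without mutant 3) and Irx3 from -0.114 to 0.0621 (without mutant 1; 0.0018 without WT 3). Nkx6-2 turned to 0.156 without mutants 3 and 4, Mnx1 to 0.0486 with the yolk sac covariate (where Nkx6-2 was -0.97, Nkx2-2 -0.86 and Nkx2-9 -0.73), and Irx3 to 0.00861 with median-ratio scaling and 0.0963 with the Sox covariate. The causes were not tested. With the replicate number as a block, the member median was -0.39. In that setting 5 members rather than 3 had an unadjusted limma p under 0.05, as did 1900 rather than 1842 of the 13596 genes. The numbers are not stated to pair embryos. Over all genes tested, same-numbered embryos correlated at -0.062, 0.040, -0.19 and -0.25 after centring, which cannot tell whether any shared a litter. Adjusted p-values of members ran down to 0.104 (Nkx2-2, array weights). Low read numbers limit Olig1 and Dbx2.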

Other observations

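Values of 4 motor neuron genes are given here, chosen after they were seen. Lhx3, which with Isl1 specifies motor neurons, was at 0.474, 0.813, 0.461 and 0.293 TPM in mutants 1 to 4, against 0.630, 1.72, 0.418 and 3.80 TPM in WT 1 to 4. Lhx4, its relative, was at 0.541, 0.738, 0.271 and 0.073 TPM in mutants, against 0.501, 2.16, 0.425 and 3.16 TPM in WT. Slc18a3, the vesicular transporter of acetylcholine, was at 0.510, 0.661, 0.415 and 0.239 TPM in mutants, against 0.221, 1.63, 0.902 and 2.69 TPM in WT. Lhx3, Lhx4 and Slc18a3 were highest in WT 4 and next in WT 2, and WT 1 and WT 3 were not above all mutants in Lhx3 or Lhx4. Isl1, well above the filter, was at 14.0, 15.1, 12.8 and 8.06 TPM in mutants, against 20.6, 16.5, 11.9 and 17.0 TPM in WT, and so was highest in WT 1. The neuronal gene score was also highest in WT 2 and WT 4, at 4.49 and 4.39, against 2.68 to 3.63 in mutants and 3.30 to 3.55 in the other WT embryos.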
